A study of Mus musculus with 6 samples.

Results

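The Dlk1-Dio3 domain, an imprinted cluster on mouse chromosome 12, was followed through 6 genes chosen by symbol: *Dlk1*, *Meg3*, *Rtl1*, *Rian*, *Mirg* and *Dio3*. They are 6 of the 23420 gene symbols counted in each library, and all 6 had counts in every library. RNA-seq compared mouse embryonic stem cells (mESCs) of the male E14 line, labelled WT, with *Patz1* KO mESCs, in which the gene for the zinc finger protein PATZ1 was disrupted in E14 by CRISPR/Cas9. There were 3 libraries of each genotype. Both genotypes were cultured with LIF and with inhibitors of MEK and GSK3, so every value below comes from cells under these inhibitors. KO lines were grown from single cells, and the clone behind each library was not given in the sources used here, so an effect of the clone and an effect of the genotype cannot be told apart. The study calls the 3 libraries of a genotype biological replicates, and p-values measure the spread between them.

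Imprinted genes are read mainly from the chromosome of a single parent. In this domain the paternal chromosome gives the protein-coding mRNAs of *Dlk1*, *Rtl1* and, by preference, *Dio3*, and the maternal chromosome gives the long non-coding RNAs *Meg3*, *Rian* and *Mirg*, with the small nucleolar RNAs (snoRNAs) and microRNAs (miRNAs) that lie in and between them. A control region between *Dlk1* and *Meg3* is methylated on the paternal chromosome, and in pluripotent mouse cells the domain is known because some induced lines lose the maternal RNAs. Gene counts do not separate the parental alleles, so maternal and paternal below name the usual origin of an RNA and not a measurement.

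*Rian*, *Rtl1* and *Mirg* fell in KO, to 52.8%, 56.3% and 62.5% of their WT means, and *Dio3* rose to 171%. When single libraries were left out, the *Dio3* call was kept only without WT replicate 3. *Meg3* had a KO mean of 51.1% of WT but missed the threshold when genotype was the only term of the model, and passed it when libraries of the same replicate number were compared. *Dlk1* was low in both genotypes and did not pass the threshold in either model. The ratios among *Meg3*, *Rtl1* and *Rian* overlapped between the genotypes. Each of the 5 ratios that held *Dio3* did not, and neither did that of *Rian* to *Mirg*. The summed snoRNA and miRNA rows of the domain were also lower in each KO library than in each WT library, and 0 of 24 tested genes in the flanks passed the threshold, where 7.49% of all tested genes did. With the replicate number in the model 2 of the 24 passed, both higher in KO.

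In GRCm38 the 6 genes span from the start of *Dlk1* to the end of *Dio3*. *Dlk1* lies at chr12:109452823-109463336 on the plus strand, *Meg3* at chr12:109541001-109571726 on the plus strand, and *Rtl1* at chr12:109589193-109600330 on the minus strand. *Rian* lies at chr12:109603940-109661716, *Mirg* at chr12:109729764-109749460 and *Dio3* at chr12:110279068-110281097, all on the plus strand. GENCODE annotates *Dlk1*, *Rtl1* and *Dio3* as protein coding, *Meg3* and *Mirg* as lincRNA and *Rian* as a processed transcript. *Rtl1* is thus the member that runs against the others, and short genes on the plus strand lie within its exon.

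The upstream promoter of *Meg3* is shown because transcription of the maternal RNAs begins there. RefSeq places it at chr12:109540746-109541045 (GRCm38.p6, plus strand, 300 bases), with 53.7% G and C and 13 CpG dinucleotides, against a median of 52.7% and 7 over 32851 mouse promoters of this length. Capitals mark TGACGTCA, the letters of the cAMP response element, which reads the same on both strands and is held by 1.79% of these promoters. It was chosen as a motif after the sequence had been read.
*Meg3* promoter: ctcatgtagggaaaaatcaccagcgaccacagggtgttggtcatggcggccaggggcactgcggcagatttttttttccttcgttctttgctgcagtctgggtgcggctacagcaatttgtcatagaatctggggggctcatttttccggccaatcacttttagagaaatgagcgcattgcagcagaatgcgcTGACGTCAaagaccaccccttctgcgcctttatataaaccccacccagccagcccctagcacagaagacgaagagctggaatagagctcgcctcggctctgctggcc

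The promoter windows of the other members were read in the same way. That of *Dio3*, the member that rose, held 25 CpG, 69.0% G and C and GGGGCGGG at 2 places on either strand, letters that 17.1% of promoters hold. The windows of *Rian*, *Mirg* and *Dlk1* held 0, 10 and 9 CpG, and a second *Meg3* start had 1. RefSeq's window for *Mirg*, chr12:109734731-109735030, lies within the gene as GENCODE places it and not at the start given above. GGGAGGG, searched on both strands because zinc fingers of this family are known to bind G-rich DNA, was in 0 of the 6 windows of the 5 members with an entry and in 21.95% of all promoters. A match or its absence in such a window is a description and says nothing about binding.

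The snoRNAs of *Rian* are shown because several resemble each other, which can bear on how far their rows are counted apart. They are box C/D snoRNAs, the class that guides methylation of other RNAs, and capitals mark the C box letters TGATGA and the D box letters CTGA. The sequences are GENCODE's transcripts (GRCm38, plus strand), and *AF357425* lies at chr12:109636012-109636084, *DQ267100* at chr12:109649617-109649688, *DQ267101* at chr12:109651424-109651496 and *DQ267102* at chr12:109656345-109656416. GENCODE places *DQ267102* in an intron of *Rian* and the others across its exons.
AF357425: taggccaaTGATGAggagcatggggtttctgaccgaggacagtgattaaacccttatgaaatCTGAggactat
DQ267100: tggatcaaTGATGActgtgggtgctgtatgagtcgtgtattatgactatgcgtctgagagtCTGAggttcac
DQ267101: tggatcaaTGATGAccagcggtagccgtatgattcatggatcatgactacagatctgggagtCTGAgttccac
DQ267102: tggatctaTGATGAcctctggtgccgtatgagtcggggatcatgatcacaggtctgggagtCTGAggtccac

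The 3 DQ sequences shared 76.7% to 83.6% of aligned bases with each other and 54.1% to 56.0% with AF357425. Their rows are uncertain to the extent that reads fitted more than 1 of them, which was not tested.

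The miRNAs that lie opposite *Rtl1* are shown because they tie the maternal RNAs to a paternal mRNA. They are encoded on the plus strand within the *Rtl1* exon, so they pair with the *Rtl1* transcript along their whole length and are known to direct its cleavage. Of 109 mature miRNAs of the domain's 59 miRNA rows in RefSeq, 11, from 6 genes, were complementary over their whole length to the 6358-base *Rtl1* transcript. The mature sequences are RefSeq's (GRCm38.p6), with *miR-127-3p* at chr12:109592888-109592909. The capitals mark the seed, bases 2 to 8, through which a miRNA recognises most of its targets.
miR-127-3p: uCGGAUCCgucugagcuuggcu
miR-136-5p: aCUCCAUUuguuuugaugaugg
miR-431-5p: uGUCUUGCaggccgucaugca
miR-433-3p: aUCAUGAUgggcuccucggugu
miR-434-3p: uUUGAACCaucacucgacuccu

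These 5 have different seeds. Across the domain, 101 different seeds were found and 8 of them occurred in more than 1 mature miRNA. The pair below shares the seed GGUUGAC and comes from nearby rows described with the short RNAs.
miR-1197-5p: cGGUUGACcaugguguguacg
miR-758-5p: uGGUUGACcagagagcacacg

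The libraries held between 11040756 and 47721070 counts, and replicate 3 was the shallow library of each genotype. Replicate 3 also carried more ribosomal RNA, with 14.4% of counts in WT and 12.5% in KO on *Rn45s*, against 1.79% to 3.03% in the other 4 libraries. A floor of 3 counts, the upper limit that a count of 0 allows, corresponded to 1.69 to 8.21 normalized counts, where a normalized count is a count divided by the size factor of its library. Floors cover counting error only. *Patz1*, the targeted gene, had 1838, 1983 and 1843 normalized counts in WT and 853, 862 and 862 in KO. The summed level of 10 ESC markers was 168680 to 178200 in WT and 190680 to 198290 in KO, with 10 of 10 detected and a lowest mean of 899. Of these, 1 was under the threshold, *Dppa5a*, with means of 35158 in WT and 45653 in KO (adjusted p 0.00223, DESeq2). The KO means of the 10 ran from 93.7% (*Klf4*) to 130% (*Dppa5a*) of the WT means. The summed level of 12 fibroblast markers was 309 to 345 in WT and 375 to 434 in KO, and its genes differed in direction. *Thy1* (179% of the WT mean, adjusted p 0.0147) and *Twist1* (192%, adjusted p 0.0378) were under the threshold and higher in KO, 4 of the 12 (*Col3a1*, *Dcn*, *Postn* and *Fap*) were at or under 3 counts in every library with *Fap* at 0, and *Pdgfrb*, at 88.6% of the WT mean, was the highest of the list. The summed level of 10 differentiated lineage markers was 1077 to 1401 in WT and 879 to 1215 in KO, with 1 under the threshold. Over all tested genes 7.49% passed. The part of these cell types in the results was not tested. In bulk RNA, fewer expressing cells and less RNA per cell cannot be told apart.

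*Rian*, the long RNA that carries the snoRNAs, was the most abundant member. In the order of the replicate numbers, 1 to 3, the WT libraries held 9443, 7977 and 8379 normalized counts of it and the KO libraries 4312, 4321 and 4987. The same order is used throughout. The genotypes did not overlap. The log2 fold change, KO over WT, was -0.92 ± 0.11 (SE) with an adjusted p of 1.22e-15 (DESeq2), and in pairs of equal replicate number it was -1.13, -0.88 and -0.75.

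*Mirg*, the long RNA at the distal miRNA cluster, had 713, 590 and 742 normalized counts in WT and 422, 390 and 465 in KO. Here too the highest KO library was below the lowest WT library. DESeq2 put the log2 fold change at -0.68 ± 0.14 (SE), with an adjusted p of 6.24e-05, and the pairs gave -0.76, -0.60 and -0.67.

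*Meg3*, the first long RNA of the maternal chromosome, had 1750, 1424 and 2607 normalized counts in WT and 818, 682 and 1456 in KO. The genotypes overlapped, because KO replicate 3 was above WT replicate 2. DESeq2 put the log2 fold change at -0.97 ± 0.44 (SE), with an adjusted p of 0.194, so *Meg3* missed the threshold. Replicate 3 was the highest *Meg3* library in both genotypes, at 1.64 times the mean of replicates 1 and 2 in WT and 1.94 times in KO. Within pairs of equal number the log2 difference was -1.10, -1.06 and -0.84. With replicate number as a block DESeq2 gave -1.01 ± 0.08 (SE), with an adjusted p of 2.20e-30, and without both replicate 3 libraries it was -1.08 (adjusted p 9.81e-14). Leaving out KO replicate 3 alone also put it under the threshold, at -1.35 (adjusted p 0.00368), and with all 6 libraries it passed with limma-voom (adjusted p 0.0378) and missed with edgeR (0.0837).

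*Rtl1*, a coding gene derived from a retrotransposon and needed in the placenta, had 639, 515 and 600 normalized counts in WT and 307, 292 and 388 in KO. The genotypes did not overlap. DESeq2 put the log2 fold change at -0.85 ± 0.15 (SE), with an adjusted p of 2.63e-06, and the pairs gave -1.06, -0.82 and -0.63. How the counting used strand was not given in the sources used here, so reads from *Rtl1* and from the RNA of the other strand cannot be told apart.

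*Dio3*, the deiodinase that inactivates thyroid hormone, was the member that rose. It had 53.2, 58.6 and 65.7 normalized counts in WT and 90.3, 107 and 106 in KO, again without overlap. DESeq2 put the log2 fold change at 0.79 ± 0.25 (SE), with an adjusted p of 0.0294, and 0.78 with the block (adjusted p 0.0321). The pairs gave 0.76, 0.87 and 0.69. It rests on 24 to 180 counts per library. The call was lost without WT replicate 1 (adjusted p 0.264), WT replicate 2 (0.179), KO replicate 1 (0.106), KO replicate 2 (0.283) or KO replicate 3 (0.0798), and was kept only without WT replicate 3.

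*Dlk1*, a transmembrane protein with EGF-like repeats related to Notch ligands, had 37.7, 69.2 and 32.9 normalized counts in WT and 41.2, 51.0 and 23.8 in KO. These rest on 9 to 98 counts per library, and the genotypes overlapped. Its log2 fold change was -0.24 ± 0.39 (SE, 95% interval -1.02 to 0.53, adjusted p 0.867, DESeq2), and without WT replicate 2 its sign changed to 0.17. Replicate 3 was the lowest *Dlk1* library in both genotypes, at 0.614 and 0.516 times the mean of the other replicates, opposite to *Meg3*.

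**Figure D1:**
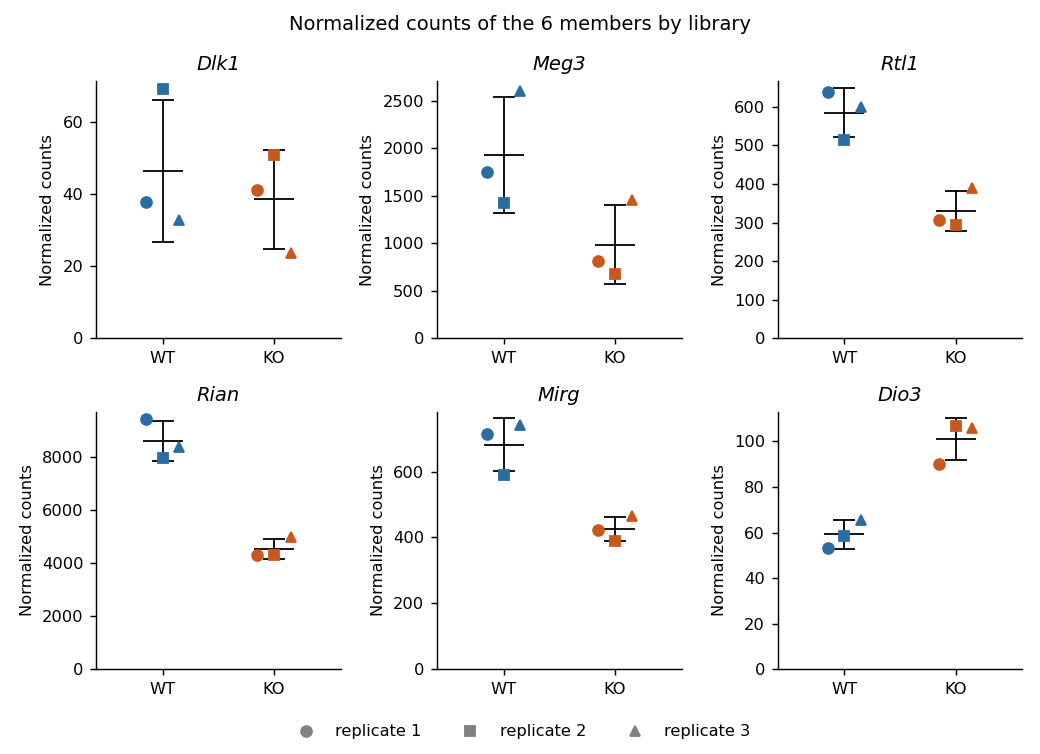
Normalized counts (y axis, from 0) of each member by genotype (x axis), with a point for each library shaped by replicate number and a black line and bar for the mean and SD of 3 libraries. Genotypes are separate for *Rtl1*, *Rian*, *Mirg* and *Dio3*, and in *Meg3* the replicate 3 library is the highest of each genotype (2607 in WT, 1456 in KO).

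Of the 6 members, 4 passed the threshold, 3 lower and 1 higher, where 7.49% of 15309 tested genes passed, 4.78% lower and 2.70% higher. With the replicate block 5 passed, 4 lower and 1 higher, where 14.6% of 14567 genes did, 7.95% lower and 6.68% higher. WT and KO libraries were separate for 4 members and for 25.6% of tested genes. The median log2 fold change of the 6 members was -0.77, and that of all tested genes was 0.0087. The plot of both models shows that the block left each fold change near its value and narrowed the error of *Meg3*.

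**Figure D2:**
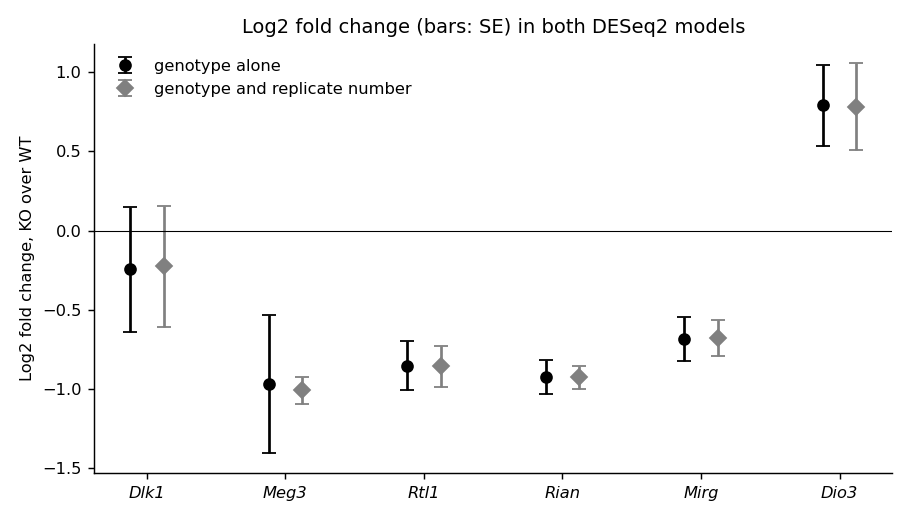
Log2 fold change, KO over WT (y axis), of each member (x axis) from DESeq2 with genotype alone (black circles) and with genotype and replicate number (grey diamonds), with bars for 1 SE. For *Meg3* the SE went from 0.44 to 0.08 while the value moved from -0.97 to -1.01.

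Levels were compared between genes as normalized counts per kb of exon. In WT, *Rian* was at 471.6 ± 41.5 (SD, n = 3), *Meg3* at 107 ± 33.8, *Mirg* at 93.5 ± 11.05, *Rtl1* at 91.9 ± 9.97, *Dio3* at 29.1 ± 3.10 and *Dlk1* at 8.24 ± 3.49. *Meg3*, *Mirg* and *Rtl1*, neighbours in that order, overlapped between their libraries, whereas *Rian* stood above and *Dio3* and *Dlk1* below in all 3. In KO the per-kb level of *Rian* was 249 ± 21.2, and *Mirg* (58.4 ± 5.15), *Meg3* (54.5 ± 22.8), *Rtl1* (51.8 ± 8.14) and *Dio3* (49.7 ± 4.54) overlapped in a chain of neighbours, with *Dlk1* at 6.83 ± 2.44. *Dio3* thus stood below the range of *Rtl1* in WT (26.2 to 32.4 against 81.0 to 100) and within reach of it in KO (44.5 to 52.6 against 46.0 to 61.1). Per kb of the longest transcript in place of all exons, the WT level of *Rian* was 1063 and that of *Mirg* 178, above the 132 of *Meg3*.

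*Rian* made up most of what was counted over the 6 genes. It held 67.4% to 75.0% of the members' counts in WT and 67.2% to 73.9% in KO. *Meg3* held 13.4% to 20.98% and 11.7% to 19.6%. *Dio3* held 0.421% to 0.551% in WT and 1.42% to 1.83% in KO. Together the 6 genes took 0.0401% to 0.0477% of all counts in WT libraries and 0.0211% to 0.0246% in KO libraries.

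To see whether the members kept their proportions, the ratio of counts was taken within each library, where the size factor cancels. Each of the 15 ratios was tested over libraries by exact permutation (two-sided), and with 3 libraries per genotype the smallest possible p is 0.1. Of these, 6 did not overlap between the genotypes and had that smallest p, or 0.25 after Benjamini-Hochberg adjustment over the 15, so none could pass 0.05.

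The ratio of *Rtl1*, by usual origin a paternal mRNA, to *Rian*, a maternal RNA, was 0.0677, 0.0645 and 0.0716 in WT and 0.0712, 0.0677 and 0.0779 in KO. The strand limit given for *Rtl1* above holds for this ratio too. The libraries of the genotypes overlapped, with a mean log2 difference of 0.09 (exact permutation p 0.4). Within pairs of equal replicate number the log2 difference was 0.074, 0.069 and 0.12, higher in KO in 3 of 3, and without 1 library the mean difference ran from 0.03 without KO replicate 3 to 0.14 without KO replicate 2. *Meg3* to *Rian* was 0.185, 0.178 and 0.311 in WT and 0.190, 0.158 and 0.292 in KO, a log2 difference of -0.08 (exact permutation p 0.7). It was replicate 3, and not a genotype, that stood apart in this ratio.

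*Rian* to *Mirg* was 13.2, 13.5 and 11.3 in WT and 10.2, 11.1 and 10.7 in KO, without overlap and with a log2 difference of -0.25 (exact permutation p 0.1). Of the 6 non-overlapping ratios it was the one without *Dio3*. The log2 differences of the remaining ratios within the group of *Meg3*, *Rtl1* and *Mirg* were -0.17 for *Meg3* to *Rtl1*, -0.32 for *Meg3* to *Mirg* and -0.16 for *Rtl1* to *Mirg*, and the libraries overlapped in each. Without 1 library, that of *Meg3* to *Mirg* ran from -0.58 without KO replicate 3 to -0.15 without WT replicate 3.

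*Rian* to *Dio3* was 178, 136 and 128 in WT and 47.8, 40.5 and 47.2 in KO, a log2 difference of -1.69 (exact permutation p 0.1). The log2 difference of *Meg3* to *Dio3* was -1.76, that of *Rtl1* to *Dio3* -1.60, that of *Mirg* to *Dio3* -1.44 and that of *Dlk1* to *Dio3* -1.02, all with the same smallest p and no overlap. Because these 5 ratios share the counts of *Dio3*, they are not 5 separate results. The ratios of *Dlk1* to *Meg3*, *Rian*, *Rtl1* and *Mirg* differed by 0.75, 0.67, 0.58 and 0.42 on the log2 scale, with exact permutation p-values of 0.4, 0.2, 0.3 and 0.5. These 4 share the counts of *Dlk1*, and each was higher in KO in 3 of 3 pairs. Their size depended on single libraries: without 1 library they ran from 0.30 to 1.36, 0.41 to 1.04, 0.28 to 1.00 and 0.14 to 0.84, lowest without KO replicate 2 and highest without WT replicate 2 or KO replicate 3.

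Taken within pairs of equal replicate number, a comparison chosen after the data were seen, 13 of the 15 ratios had the same sign in all 3 pairs, 8 of them among the 10 ratios without *Dio3*. The exceptions were *Meg3* to *Rian* and *Rtl1* to *Mirg*. An exact sign-flip test over 3 pairs cannot give a p below 0.25.

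**Figure D3:**
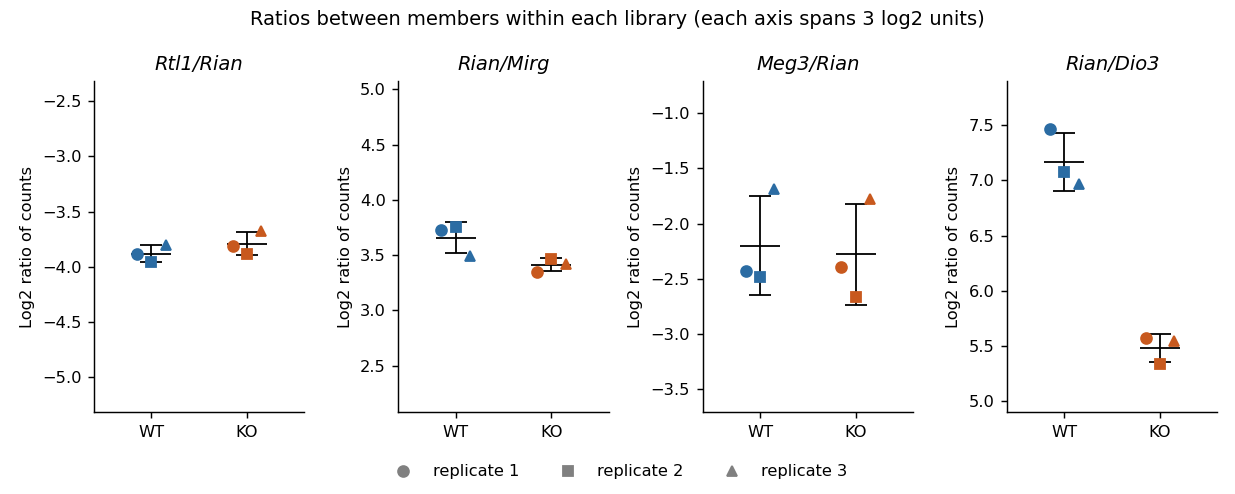
Log2 ratio of counts between members (y axis, each panel spanning 3 log2 units at its own level) by genotype (x axis), with a point for each library shaped by replicate number and lines for the mean and SD of 3 libraries. *Rtl1* to *Rian* and *Meg3* to *Rian* overlap between genotypes, with replicate 3 highest in the latter, and *Rian* to *Dio3* is lower in each KO library.

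Summed by usual parental origin, the maternal RNAs *Meg3*, *Rian* and *Mirg* held 11906, 9991 and 11727 normalized counts in WT and 5552, 5394 and 6908 in KO, a log2 difference of -0.91. The paternal mRNAs *Dlk1*, *Rtl1* and *Dio3* held 730, 643 and 698 in WT and 439, 450 and 518 in KO, a log2 difference of -0.56. The maternal to paternal ratio was 16.3, 15.5 and 16.8 in WT and 12.7, 11.98 and 13.3 in KO. Both sums were lower in every KO library, and so was their ratio. Per kb of exon the log2 difference of the paternal sum was -0.26, and that of the ratio was -0.64 against -0.36 without the length. *Rian* sets most of the first sum and *Rtl1* most of the second. Reads of *Rtl1* cannot be told apart from those of the other strand, so the paternal sum may hold maternal RNA.

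Between the start of *Dlk1* and the end of *Dio3*, 69 further rows were counted, 59 for miRNA genes, 7 for snoRNAs and 3 for other genes. Of these 14 were at 0 in all libraries. A row of this kind counts reads of total RNA over a short stretch, so it does not measure a mature miRNA, and reads of a long transcript that runs through it cannot be told apart from those of the short RNA. An adjusted p was given for 34 rows. Of these, 33 had a lower value in KO, the median over all 34 was -0.87 (log2), and 1 passed the threshold, where 7.49% of all tested genes passed, and 5 had an unadjusted p under 0.05, where 17.2% of all did. Rows that share a host transcript are not independent of each other or of the members.

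The row that passed was *AF357359*, a snoRNA record that overlaps an exon of *Rian* (RefSeq, chr12:109650709-109650738). It had 192, 167 and 200 normalized counts in WT and 109, 104 and 137 in KO, without overlap. DESeq2 put its log2 fold change at -0.70 ± 0.20 (SE), with an adjusted p of 0.0101. It missed the threshold without WT replicate 1 (adjusted p 0.141), KO replicate 1 (0.151) or KO replicate 2 (0.189). *DQ267102*, in an intron of *Rian*, was the only other short row with a mean of at least 50 normalized counts. It had 61.2, 48.02 and 79.4 in WT and 42.9, 39.7 and 39.6 in KO, which did not overlap but missed the threshold (log2 fold change -0.57, SE 0.32, adjusted p 0.366).

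The other snoRNA rows were lower in level and had the same sign. *AF357425*, *DQ267100* and *DQ267101*, whose sequences are given above, had log2 fold changes of -0.98, -0.76 and -1.28 with adjusted p-values of 0.381, 0.609 and 0.452 (DESeq2). Over the 7 snoRNA rows the summed level was 352, 316 and 405 normalized counts in WT and 209, 205 and 256 in KO, or 62.5% of the WT mean. The 7 values ran from -1.28 to -0.49, on the same side as the -0.92 of *Rian*.

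The 59 miRNA rows summed to 602, 470 and 583 normalized counts in WT and 319, 269 and 330 in KO, or 55.5% of the WT mean, without overlap. By row, 0 of the 27 with an adjusted p passed with DESeq2, where 7.49% of all tested genes did, and 4 had an unadjusted p under 0.05, where 17.2% of all did. Of these rows 1 passed with edgeR and with limma-voom. That row was *Mir1197*, named after its values were seen. It lies at chr12:109712317-109712436, and its levels were 34.9, 26.1 and 24.6 normalized counts in WT and 10.7, 12.5 and 10.6 in KO. DESeq2 put its log2 fold change at -1.35 ± 0.49 (SE), with an adjusted p of 0.0667, and the adjusted p was 0.0296 with edgeR and 0.0247 with limma-voom. Across the other alternatives with all libraries kept it was 0.0536 to 0.0875. *Mir758*, also named after its values were seen because it shares a seed with it, had 14.9, 13.4 and 13.7 normalized counts in WT and 8.47, 5.93 and 7.93 in KO (log2 fold change -0.93, adjusted p 0.525).

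Of the 55 further rows with counts, 1 of them for a longer non-coding gene, 45 had a lower and 10 a higher mean in KO. The short rows were summed by position. The 7 rows between *Meg3* and *Rtl1* held 76.1, 67.1 and 140 normalized counts in WT and 37.2, 44.5 and 50.2 in KO. WT replicate 3 stood above the rest there, as it did for *Meg3* itself, and 107 of its 140 normalized counts were on the single row *Mir665*. Without that row, a choice made after the data were seen, the sums were 45.2, 46.6 and 32.9 in WT and 22.01, 22.5 and 37.0 in KO, which overlapped. The 25 rows between *Rian* and *Mirg*, which lie outside the exons and introns of both, held 299, 261 and 238 in WT and 177, 139 and 156 in KO, or 59.3% of the WT mean. Those in introns of *Mirg* held 91.5, 65.0 and 82.1 in WT and 36.1, 36.2 and 42.3 in KO, or 48.02%. In the plot of these sums the genotypes do not overlap in the 4 panels, the first of which includes *Mir665*.

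**Figure D4:**
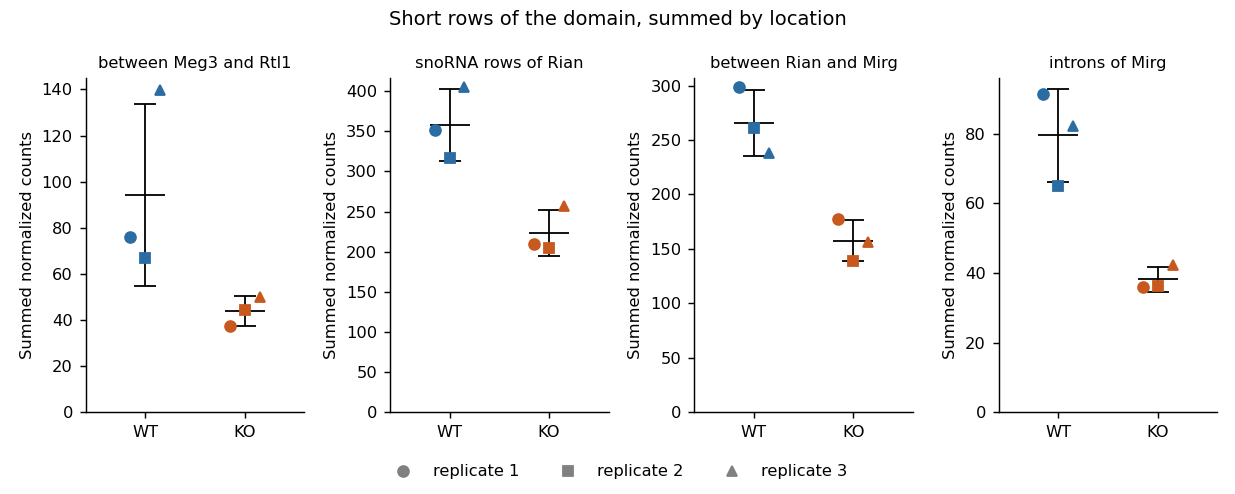
Summed normalized counts (y axis, from 0) of short rows in 4 groups by genotype (x axis), with a point for each library shaped by replicate number and lines for the mean and SD of 3 libraries. In each group all 3 KO libraries lie below all 3 WT libraries, for instance 139 to 177 against 238 to 299 between *Rian* and *Mirg*, though without *Mir665* the first group overlaps.

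Opposite *Rtl1* nothing could be measured. All 8 rows that overlap its exon, among them those of the 6 miRNA genes complementary to it, were at 0 in all 6 libraries, as were the 2 miRNA rows within *Meg3* exons. The host gene rows over the same bases had between 147 and 3060 counts per library. The zeros therefore give no level for the miRNAs printed above, and whether they come from how reads in overlapping genes were assigned was not tested. Of the rows that overlap exons of *Rian* and of *Mirg*, 5 of 5 and 8 of 9 had counts.

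The genes beside the domain were read in the same way. Within 1 Mb on either side, 0 of 24 tested genes passed the threshold with DESeq2, where 7.49% of all tested genes did, and 0 passed with edgeR or limma-voom. An unadjusted p under 0.05 was given to 2 of them, and to 17.2% of all. The median of their log2 fold changes was 0.10. *Begain*, the nearest row to *Dlk1* and named after its values were seen, lies 385 kb before it. It had 16.6, 25.4 and 21.9 normalized counts in WT and 8.47, 11.3 and 15.9 in KO, or 55.7% of the WT mean without overlap, and missed the threshold (log2 fold change -0.93, SE 0.54, adjusted p 0.390). *Wdr25*, 424 kb before *Dlk1*, had 154, 165 and 175 normalized counts in WT and 180, 173 and 246 in KO, which overlapped (log2 fold change 0.25, adjusted p 0.609). *Ppp2r5c*, a regulatory subunit of protein phosphatase 2A, lies 166 kb after *Dio3* and had 2551, 2787 and 2393 in WT and 2922, 3298 and 2820 in KO, without overlap (log2 fold change 0.22, adjusted p 0.237). With the replicate block 2 of 24 flanking genes passed, where 14.6% of all did, both higher in KO: *Ppp2r5c* (adjusted p 0.00679) and the chaperone *Hsp90aa1* (log2 fold change 0.20, adjusted p 0.00329), the latter named after its values were seen. On chromosome 12 outside the domain, flanks included, 36 of 518 tested genes passed, with a median log2 fold change of 0.036.

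**Figure D5:**
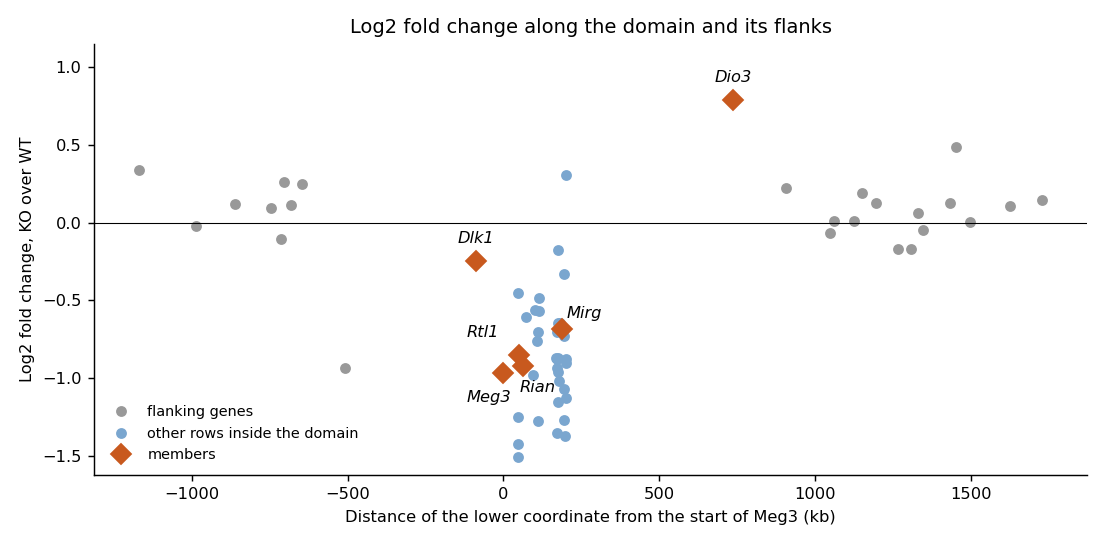
Log2 fold change, KO over WT (y axis), against the distance in kb from the start of *Meg3* (x axis) for the 6 members (diamonds), the 34 other rows of the domain with an adjusted p (blue) and the 24 tested flanking genes (grey). From *Meg3* to *Mirg* the values lie below 0 except for 1 short row, *Dio3* lies at 0.79, and the flanking genes have a median of 0.10.

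Factors that keep or read imprints were listed as the pathway around the domain: methyltransferases and their partners, the zinc finger and KAP1 machinery, demethylating enzymes and Polycomb subunits. Of 25 listed genes 23 were tested and 3 passed the threshold, 2 lower and 1 higher, where 7.49% of all tested genes passed, and the median log2 fold change was 0.036. With the replicate block 6 passed, 3 in each direction, where 14.6% of all did. *Dnmt3l*, the partner of the de novo methyltransferases, had 6514, 4388 and 5317 normalized counts in WT and 8471, 6397 and 8557 in KO. It overlapped between the genotypes but was higher in KO in 3 of 3 pairs. Its log2 fold change was 0.53 (adjusted p 0.00953, DESeq2), with an adjusted p of 1.37e-13 under the block. *Dppa3*, which protects methylation in the early embryo, had 56.6, 54.4 and 41.1 in WT and 26.0, 24.9 and 21.1 in KO (log2 fold change -1.08, adjusted p 0.0375). *Dnmt3l* missed the threshold without WT replicate 2 (adjusted p 0.159), KO replicate 1 (0.169) or KO replicate 3 (0.0767), without both replicate 3 libraries (0.568), and with edgeR (0.0864) and limma-voom (0.0703). *Dppa3* missed it without both replicate 3 libraries (0.0592) and without any single library but WT replicate 3 (0.0740 to 0.312). *Suz12*, a core subunit of Polycomb repressive complex 2, had 7237, 7017 and 6851 in WT and 5758, 5352 and 5230 in KO (log2 fold change -0.37, adjusted p 0.00120). *Suz12* lies on chromosome 11, where 255 of 1262 tested genes were called lower and the median log2 fold change was -0.27. Over all tested genes 4.78% were called lower. *Patz1* also lies on chromosome 11. *Dnmt3l* and *Dppa3* are on chromosomes 10 and 6.

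Imprinted genes of other domains were called in both directions. Of 56 listed, 42 were tested and 10 passed the threshold, 4 lower and 6 higher, with a median log2 fold change of 0.0066. Over all tested genes 7.49% passed. With the block 12 of 41 passed, 6 in each direction, where 14.6% of all did.

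Across the 6 libraries, the levels of *Rian*, *Rtl1* and *Mirg* ran in close order. Pearson's r of log2(normalized count + 1) was 0.984 between *Rtl1* and *Rian*, 0.985 between *Rtl1* and *Mirg*, 0.969 between *Rian* and *Mirg* and 0.829 between *Meg3* and *Rian*, and it was -0.943 between *Rian* and *Dio3*. These points fall into 2 genotypes that share libraries and depth, so the values are a description of these libraries. Among 11524 genes with a mean of at least 50 normalized counts, those outside the domain with the highest r were *Tm9sf4* (0.999) and *Casc3* (0.996) for *Meg3*, *Tex2* and *Cdc27* (both 0.998) for *Rian*, *Cwc25* (0.997) and *Actr2* (0.993) for *Rtl1*, *Prpf39* (0.997) and *Sumf2* (0.995) for *Mirg*, and *Bex4* (0.998) and *Hmgn1* (0.997) for *Dio3*. *Casc3*, *Tex2*, *Cdc27*, *Cwc25* and *Actr2* lie on chromosome 11. Such genes follow the order of the libraries and not the size of the difference: *Tm9sf4* had a log2 fold change of -0.17 against the -0.97 of *Meg3*.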

How the data were processed

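Total RNA of 3 WT and 3 *Patz1* KO libraries was depleted of ribosomal RNA and sequenced as stranded libraries. The authors deposited raw read counts per gene symbol, 1 file per library, after mapping to mm10. The submitters' processing notes name TopHat2 2.1.1, Bowtie2 2.3.1.0 and featureCounts 1.6.2. The gene annotation and the strand setting of the counting were not given in the sources used here.

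Groups and replicate numbers came from the sample titles. Gene coordinates are those of GENCODE M21 and RefSeq for GRCm38, the build also called mm10. A position was found for 23283 of 23420 symbols. Counts were tested over all genes with the two-sided Wald test of DESeq2 1.42.0 (R 4.3.3), with median-of-ratios size factors, genotype as the only term, independent filtering at 0.1, Benjamini-Hochberg adjustment and a threshold of 0.05. Normalized counts are counts divided by size factors. Ratios between members had 0.5 added to each count and were compared with SciPy 1.17.1 (Python 3.11.15). Sums by origin had no test. Levels were divided by the length of all exons.

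Alternatives were edgeR 4.0.16, limma-voom (limma 3.58.1), TMM size factors, a filter of 10 counts in 3 libraries, no independent filtering or filtering at 0.05, the replicate number as a block, leaving out each library or both replicate 3 libraries, and leaving out *Rn45s* and *Lars2*. The replicate numbers in the titles paired the libraries: after subtracting the mean of each genotype over 11524 genes, WT and KO libraries of equal number correlated at 0.469, 0.619 and 0.684. All 15 pairs of libraries differed beyond sampling noise, with a chi-square of at least 8.80 times its degrees of freedom.

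The members, the gene lists and the tests were chosen with earlier results of these data known. Genes named are the members, rows of the domain under the threshold or with a mean of at least 50 normalized counts, the nearest such gene on either side, the 2 genes most correlated with each member of that level, regulators under the threshold and *Patz1*. Outside this rule, and with their values known, *Begain*, *Hsp90aa1*, *Mir665*, *Mir1197*, *Mir758*, the snoRNAs whose sequences are shown and single ESC and fibroblast markers are also named. The code was tested on simulated counts with the same dispersion for every gene and no effect of replicate number, unlike these libraries. There DESeq2 recovered 41% of 1.5-fold and 95% of 2-fold changes, and 9.93% of its calls were false.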

Additional observations from a re-analysis of the deposited data

How the results depend on the processing

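*Rian*, *Rtl1* and *Mirg* kept their direction and their side of the threshold in every alternative. With the replicate block, justified by the pairing, the log2 fold change of *Meg3* was -1.01 and passed, as it did with limma-voom (-1.07) and without both replicate 3 libraries (-1.08). Leaving out 1 library gave *Meg3* values of -1.35 to -0.69. *Dio3* missed the threshold without both replicate 3 libraries (0.82) and took values of 0.71 to 0.87 without 1 library. *Dlk1* took values of -0.48 to 0.17 without 1 library and changed sign without WT replicate 2. Without 1 library the log2 difference of *Meg3* to *Rtl1* ran from -0.36 to 0.052, changing sign without WT replicate 3, and that of *Meg3* to *Rian* ran from -0.33 to 0.18, changing sign without WT replicate 3 or KO replicate 2 (0.11). The other 147 of 150 recomputed ratios kept their sign, though those of *Dlk1* to *Meg3*, *Rian*, *Rtl1* and *Mirg*, of *Meg3* to *Mirg* and of *Rtl1* to *Rian* moved by over 1.5 times without single libraries, from 0.14 to 1.36, from -0.58 to -0.15 and from 0.03 to 0.14. Per kb of exon, the log2 difference of the paternal sum was -0.26, as *Dio3* then weighs more, and that of the maternal to paternal ratio was -0.64. With the block 2131 genes, 2 flanking genes and 6 regulators were called, against 1146, 0 and 3 without it, and the cause of these changes was not tested. Without 1 library between 583 and 1341 genes were called, and the fits without WT replicate 1, WT replicate 2, KO replicate 1 and KO replicate 2 gave 605, 664, 583 and 590. The other rows of the domain gave 2 calls with edgeR and with limma-voom and 0 to 2 without 1 library, with 0 when replicate 1 of either genotype or KO replicate 2 was left out. The regulators gave 1 call without both replicate 3 libraries and 1 to 3 without 1 library. The block changed no other call among the members. *Dlk1*, *Dio3* and the short rows rest on few counts in replicate 3, and the part of depth in their calls was not tested.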
